A study of Mus musculus with 16 samples.

Results

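Hepatocyte identity rests on a small set of liver-enriched transcription factors, and 9 of them are described here: Hnf4a, Foxa1, Foxa2, Foxa3, Cebpa, Cebpb, Onecut1, Onecut2 and Prox1. They were chosen by name, and each matched 1 of the 16793 genes in the deposited table. Messenger RNA had been sequenced from livers of wild-type mice with induced primary liver cancer, collected at the end of the experiment. The ovariectomy group (OVX) consisted of female mice without ovaries and was set against sham surgery (Sham). The LCAT group overexpressed lecithin-cholesterol acyltransferase in the liver and was set against an empty vector (Vec). Each group had 4 libraries, and all 4 groups carried the wild-type genotype and the cancer induction. The sources used here do not give the age of the mice, the sex of the mice that received vectors, the inducing agent, the vector or its promoter. They also do not say whether tumour or surrounding tissue was sampled.

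The factors work as a network in which each member binds the regulatory regions of liver genes and of other members. HNF4A is a nuclear receptor that holds many hepatocyte metabolic genes active, the FOXA proteins are forkhead pioneer factors that open chromatin in the liver lineage, and C/EBPα and C/EBPβ are basic leucine zipper proteins. C/EBPα is known for metabolic genes and for restraining proliferation, C/EBPβ for the acute phase and regeneration. The cut-homeodomain factors ONECUT1 (HNF6) and ONECUT2 act in liver and bile duct development, and the homeobox protein PROX1 is known in hepatocytes as a partner and repressor of HNF4A.

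The region just before a gene's start is where such cross-binding can be looked for, so sequence is shown for the 4 genes that passed a test below (Cebpa, Cebpb, Onecut1 and Foxa1) and for 2 others with letters of an ONECUT site (Hnf4a and Foxa2). The RefSeq promoter table (GRCm38.p6) held 12 windows for 8 of the 9 genes, each reaching from 250 bases before a start to 50 after it. Stretches are written 5′ to 3′ on the gene's own strand. Capitals mark the core promoter box TATAAA in Cebpa, TGACG (the core of CREB and ATF sites) and GGGCGG (a GC box) in Cebpb and Onecut1, TGTTTAC (a FOXA site) in Foxa1, and ATTGATT (an ONECUT site) in Foxa2 and Hnf4a. Both strands were searched, and the first motif in Onecut1 and those in Foxa1 and Hnf4a lie on the opposite strand, so their capitals are the reverse complement.
Cebpa, chr7:35119203-35119292, plus strand: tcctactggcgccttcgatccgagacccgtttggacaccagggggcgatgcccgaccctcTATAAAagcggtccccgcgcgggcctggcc
Cebpb, chr2:167688825-167688914, plus strand: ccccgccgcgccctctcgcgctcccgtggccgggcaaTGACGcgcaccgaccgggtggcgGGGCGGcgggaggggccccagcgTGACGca
Onecut1, chr9:74861771-74861870, plus strand: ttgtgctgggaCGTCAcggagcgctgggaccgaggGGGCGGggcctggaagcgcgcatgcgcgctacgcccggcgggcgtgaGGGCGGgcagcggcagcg
Foxa1, chr12:57546212-57546271, minus strand: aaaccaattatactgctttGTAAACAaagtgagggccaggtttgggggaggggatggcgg
Hnf4a, chr2:163506747-163506807, plus strand: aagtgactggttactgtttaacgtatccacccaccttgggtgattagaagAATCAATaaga
Foxa2, chr2:148047150-148047209, minus strand: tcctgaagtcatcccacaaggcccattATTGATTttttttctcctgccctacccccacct

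Distances here are from RefSeq starts. The FOXA letters TGTTTAC began 141 bases before the RefSeq start of Foxa1 and occurred in 3.65% of all 32851 windows of this length. That start and the printed Foxa1 stretch lie inside the gene as GENCODE M21 places it (57540628 to 57546916), not before it. The ONECUT letters ATTGATT, present in 2.86% of windows, lay 60 bases before the Hnf4a start and 213 bases before a Foxa2 start. In Cebpb the TGACG letters stood 53 and 7 bases before the start, but 20.8% of windows hold them. The core promoter box of Cebpa occurs in 13.6% and the GC box letters in 35.7% of windows. The letters searched for C/EBP (TTGCNNAA, 10.8% of windows) and HNF4 (CAAAGTCCA, 0.475%) were in none of the 12 windows. A match of letters is a description and not a bound site. The motifs marked in the printed stretches do not overlap each other.

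Values below are the authors' normalized read counts, that is reads of a gene divided by a size factor of its library. Whole reads could be recovered from them, and totals ran from 17782178 to 27110501 reads with OVX and from 21428827 to 25850761 with Sham, against 12562943 to 19248762 with LCAT and 14412808 to 20659336 with Vec. Lcat served as a check of the labels. It was 5014, 5074, 5106 and 4531 in LCAT libraries 1 to 4, against 3348, 2926, 4521 and 2980.1 in Vec libraries, so the groups were separate by a narrow gap between LCAT library 4 and Vec library 3. The log2 difference of LCAT from Vec was 0.54 (SE 0.141, limma adjusted p = 0.0168). In the surgery groups Lcat was 3061 to 3637 in OVX libraries and 5578 to 5714 in Sham libraries. All LCAT libraries therefore lay below all Sham libraries, and the check covers only the vector groups. The albumin gene Alb took 1737656 to 1840958 in OVX libraries, 2093519 to 3053958 in Sham libraries, 1619358 to 2074364 in LCAT libraries and 1798516 to 1992120.0 in Vec libraries, and none of the 19 hepatocyte markers in the table was at 0, as the liver label requires. Equalizing library totals in place of the authors' scaling moved the median change of all genes by 0.24 with OVX and by -0.18 with LCAT on the log2 scale.

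In 3 of the groups, libraries 2 and 3 tended to lie between libraries 1 and 4. Taking library 4 as 0 and library 1 as 1, libraries 2 and 3 lay at medians of 0.766 and 0.619 with OVX, over 656 genes that differed at least 2-fold between libraries 1 and 4. They lay at 0.656 and 0.456 with Sham, over 1296 genes, and at 0.426 and 0.385 with LCAT, over 2390 genes. With Vec the 188 such genes were scattered, with quartiles of 0.0773 and 0.964 for library 2. Among the 9 factors, both middle libraries lay between the ends in 6 with OVX, 7 with Sham, 4 with LCAT and 2 with Vec, where all genes with a mean of at least 50 gave 42.6%, 57.5%, 62.2% and 10.9%. The labels do not say that libraries come from separate animals, so p-values measure only the spread between these samples, which may be technical. With libraries 2 and 3 of the OVX, Sham and LCAT groups left out and all 4 Vec libraries kept, limma called 0 of 13056 genes with OVX (1688 at an unadjusted p below 0.05) and edgeR also 0 (1655), so no call with OVX below holds on libraries 1 and 4 alone. With LCAT, 2213 of 13040 genes were called by limma, and Lcat itself was 0.49 there and not called (limma adjusted p = 0.141). Each call on the 9 factors is therefore given with its value on these end libraries, and each list with its calls there.

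Per kilobase of exon, Hnf4a, Cebpa and Cebpb were the highest of the 9 genes in all 4 groups, with group means of 1793 to 3369 normalized reads per kilobase. Hnf4a led with OVX (2337, against 2211 for Cebpa, ranges overlapping), whereas Cebpb led with Sham (3369, against 2939 for Cebpa, ranges overlapping). Cebpa led with LCAT (3075, against 2546 for Cebpb, ranges separate), and Cebpb led with Vec (2953, against 2536 for Cebpa, ranges separate). Foxa3 came next by mean in each group, at 453 with OVX, 279 with Sham, 648 with LCAT and 625 with Vec. With Sham its range (76.0 to 504) overlapped that of Onecut1, the next gene, and in the other groups it stood apart from the next gene. The other 5 genes lay between 48.0 and 246 per kilobase. Prox1 was the highest of these 5 with OVX, LCAT and Vec, and Onecut1 with Sham. Most of the neighbours in this lower part of the order overlapped in their ranges. The exceptions were in the Vec group, where Prox1 stood above Onecut1 and Foxa1 above Onecut2 without overlap.

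**Figure D1:**
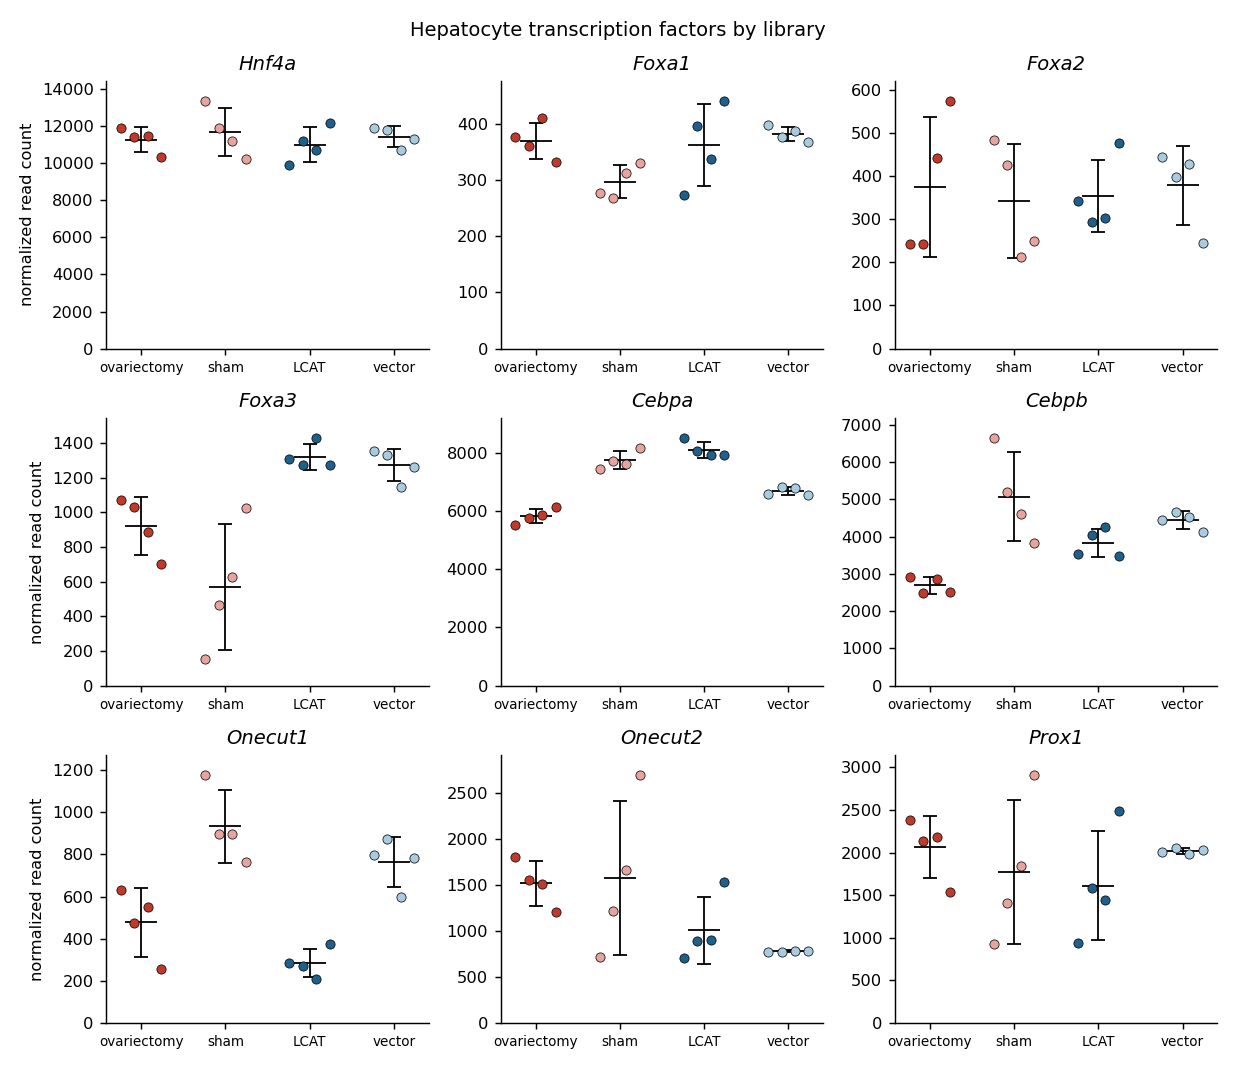
Normalized read counts of the 9 genes in each of the 16 libraries (points, libraries 1 to 4 from left to right within a group) with the group mean and SD (bars, n = 4 each), on a linear axis starting at 0. Cebpa with OVX lies wholly below Sham and with LCAT wholly above Vec, Onecut1 is lower in OVX and LCAT livers, and Foxa3, Onecut2 and Prox1 span 6.63-, 3.75- and 3.13-fold within the Sham libraries.

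The surgery comparison asked how loss of the ovaries affects livers with induced cancer. Cebpa, Cebpb and Onecut1 fell and Foxa1 rose. Hnf4a, Foxa2, Foxa3, Onecut2 and Prox1 did not pass the test. These 4 calls among 9 genes, 1 higher and 3 lower, stand beside 39.6% of all 13059 tested genes called by the same rule, 19.0% of the tested genes higher and 20.6% lower. By number these were 2484 higher and 2686 lower, and with equal library totals 4454 higher and 1208 lower. The groups did not overlap in these 4 genes, against 39.0% of all genes. The share called among the 9, 44.4%, was near the background of 39.6%. The median log2 fold change of the 9 was 0.09, beside 0.00 over all genes.

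Cebpa, the gene of the metabolic C/EBP factor, is a single-exon gene on chromosome 7 (35119293 to 35121928, plus strand, GRCm38). It was 5534, 5765, 5873 and 6144 in OVX libraries 1 to 4, against 7451, 7737, 7631 and 8172 in Sham libraries. The highest OVX library lay below the lowest Sham library, and both groups were tight. Cebpa fell by 0.41 on the log2 scale (SE 0.063, 0.752-fold, limma adjusted p = 0.00169). Its change was -0.42 on the end libraries alone (limma adjusted p = 0.455). With equal library totals it was -0.17 and not called (limma adjusted p = 0.121), which is a drop of the same size relative to the shifted median. In whole liver, fewer cells of a type and less RNA per cell cannot be told apart.

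Cebpb, the factor of the acute phase and regeneration, lies on chromosome 2 (167688915 to 167690418, plus strand) and also has a single exon. Its values were 2919, 2495, 2867 and 2506 in OVX libraries, against 6645, 5194, 4599.6 and 3827 in Sham libraries. All OVX libraries were below all Sham libraries, and the Sham libraries were widely spread, with library 1 highest and library 4 lowest. Cebpb averaged 2697 ± 228 with OVX and 5066 ± 1192 with Sham (SD, n = 4 each), which is -0.88 on the log2 scale (SE 0.157, limma adjusted p = 0.00338). On the end libraries alone it was -0.90 (limma adjusted p = 0.351). In the GENCODE M21 annotation 312 of the 1504 exon bases of Cebpb are shared with Tmem189 on the opposite strand. Tmem189, singled out for this overlap, averaged 249 ± 42.7 with OVX and 708 ± 233 with Sham (log2 fold change -1.45, limma adjusted p = 0.0024). Whether the authors counted by strand is not given, and the part of shared reads in the Cebpb change was not tested.

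Onecut1 encodes HNF6, which acts in bile duct development and on metabolic genes of the hepatocyte. It lies on chromosome 9 (74861921 to 74891781, plus strand). It was 633, 472, 552 and 254 in OVX libraries, against 1177, 898, 895 and 766 in Sham libraries. No libraries overlapped, and library 4 was the lowest of its group on both sides. Onecut1 changed by -1.03 on the log2 scale (SE 0.271, 0.491-fold, limma adjusted p = 0.0179), and -1.24 on the end libraries alone (limma adjusted p = 0.383). Of its 4113 exon bases, 2171 are shared with the lincRNA gene Gm20649 on the same strand. Gm20649 has no entry of its own among the deposited genes, and reads of both cannot be told apart in the shared bases.

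Foxa1, a forkhead pioneer factor, was the 1 gene of the 9 that rose. It lies on chromosome 12 (57540628 to 57546916, minus strand). Its values were 376, 361, 409.7 and 332 in OVX libraries, against 276, 268, 312 and 330.3 in Sham libraries. OVX library 4 and Sham library 4 were almost level, so the groups only just stood apart. Foxa1 rose by 0.32 on the log2 scale (SE 0.102, 1.25-fold, limma adjusted p = 0.0364). The call was lost when any of OVX libraries 1 to 3 or Sham libraries 1 to 3 was left out (limma adjusted p from 0.0587 to 0.104), in a fit of all 16 libraries (0.064) and on the end libraries (0.23, limma adjusted p = 0.669).

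Hnf4a, on chromosome 2 (163506808 to 163572910, plus strand), was 11895, 11426, 11481 and 10321 in OVX libraries, against 13375, 11905, 11219 and 10246 in Sham libraries. The groups overlapped over most of their range. The log2 fold change was -0.05, with a 95% interval from -0.26 to 0.17 (limma adjusted p = 0.718), which allows a change of up to 0.835-fold or 1.12-fold. The sign depended on scaling, since equal library totals gave 0.20 (limma adjusted p = 0.0468), less than the shift of 0.24 in the median of all genes.

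The other 4 genes varied too much within groups for a statement on ovariectomy. Foxa3, the forkhead factor known from liver metabolic genes, lies on chromosome 7 (19013284 to 19023538, minus strand). It was 1074, 1029, 887 and 703 in OVX libraries, against 155, 463, 629 and 1027 in Sham libraries. Sham library 4 reached the OVX values, and Sham library 1 was far below all others. The Foxa3 change of 0.97 did not pass (SE 0.499, limma adjusted p = 0.151). The change was 1.35 and called without Sham library 4 (limma adjusted p = 0.0364), but 0.45 and not called without Sham library 1 (0.228). Onecut2, the paralog of Onecut1, was 1808, 1549.8, 1509 and 1203 in OVX libraries, against 719.7, 1215, 1668 and 2696 in Sham libraries. Prox1, on chromosome 1 (190118035 to 190170714, minus strand), was 2387, 2139, 2182 and 1541 in OVX libraries, against 930.5, 1408, 1840.2 and 2910.1 in Sham libraries. For both genes the Sham libraries enclosed the OVX libraries. The log2 fold changes were 0.09 for Onecut2 (95% interval -0.71 to 0.90, limma adjusted p = 0.854) and 0.32 for Prox1 (-0.40 to 1.04, 0.437), and that of Onecut2 was -0.23 without Sham library 1.

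Foxa2, the forkhead factor required for liver specification together with Foxa1, lies on chromosome 2 (148042877 to 148046969, minus strand). It was 244, 243, 442 and 575 in OVX libraries, against 485, 426, 213 and 251 in Sham libraries. Libraries 1 and 2 were low and 3 and 4 high with OVX, and the reverse held with Sham. The log2 fold change was 0.11 (95% interval -0.71 to 0.94, limma adjusted p = 0.824), and it was -0.13 without OVX library 4.

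**Figure D2:**
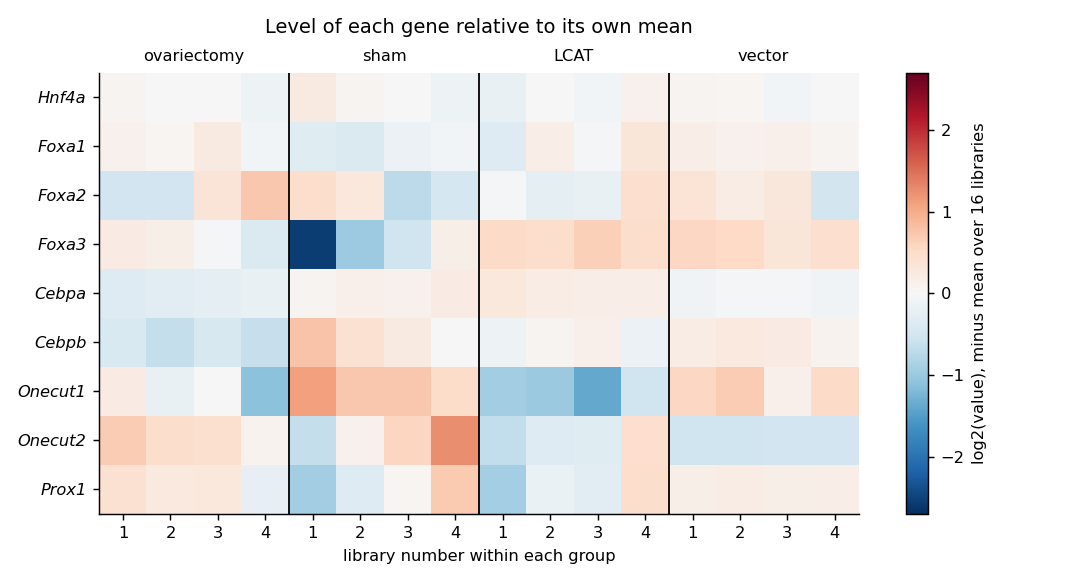
Level of each of the 9 genes in the 16 libraries, as log2 of the normalized read count minus the gene's mean over all libraries (colour, red higher and blue lower), with libraries 1 to 4 of each group side by side. Foxa3, Onecut2 and Prox1 are lowest in Sham library 1 and highest in Sham library 4 within that group, and the Vec libraries differ little for Onecut2 and Prox1.

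Within the Sham group 4 genes had library 1 lowest and library 4 highest. The ratio of library 4 to library 1 was 6.63 for Foxa3, 3.75 for Onecut2, 3.13 for Prox1 and 1.10 for Cebpa. On the scale from library 4 (0) to library 1 (1), libraries 2 and 3 lay at 0.646 and 0.456 for Foxa3, at 0.75 and 0.52 for Onecut2 and at 0.759 and 0.54 for Prox1. Hnf4a, Cebpb and Onecut1 ran the other way, with library 1 the highest, 1.31-, 1.74- and 1.54-fold over library 4. In the LCAT group Prox1 and Onecut2 were again lowest in library 1 and highest in library 4, by 2.64- and 2.18-fold. In the Vec group the same genes were almost level, with a coefficient of variation of 1.52% for Prox1 and 0.974% for Onecut2.

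Markers of other cells and states moved with ovariectomy, where 19.0% of all genes were called higher and 20.6% lower, and 0 on the end libraries. Of 19 hepatocyte markers tested, 0 were higher and 9 lower, but 4 were higher and 7 lower with equal library totals. They had summed levels of 3089767 to 3745574 in OVX libraries and 3678097 to 5022544 in Sham libraries. All 16 cell cycle genes were higher, with sums of 3719 to 5712 in OVX libraries and 885 to 1094 in Sham libraries. Of 10 cholangiocyte markers tested, 5 were higher and 1 lower, and their sums were 36971 to 104923 with OVX and 16490.3 to 22710.2 with Sham. Most of that sum was Spp1, which encodes osteopontin and is also made by macrophages and tumour cells. Of 12 stellate cell and fibroblast markers, 8 were higher and 2 lower, with sums of 11075 to 16789.5 with OVX and 8247 to 8661 with Sham. Of 10 mesothelial and other epithelial markers tested, 9 were higher and 0 lower. For 11 monocyte and neutrophil markers the calls were 5 higher and 1 lower. Of 12 sinusoidal endothelial markers, 0 were higher and 5 lower, with sums of 7071 to 7518 with OVX and 8692 to 9349 with Sham. Of 12 Kupffer cell and macrophage markers, 1 was higher and 3 lower, but 4 higher and 1 lower with equal library totals. None of these markers in the table was at 0 in both groups. Their part in the changes of Cebpa, Cebpb, Onecut1 and Foxa1 was not tested. Prox1 also marks lymphatic endothelium, where 3 of 9 markers were higher and 3 lower.

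The vector comparison asked what raised LCAT does in livers with induced cancer. Onecut1 fell, Cebpa rose, and the other 7 genes did not pass the test. The 2 calls among 9 genes, 1 in each direction, stand beside 40.7% of 13095 tested genes called, 20.2% of the tested genes higher and 20.5% lower. By number these were 2651 higher and 2681 lower, and with equal library totals 1794 higher and 3969 lower. The groups did not overlap in the same 2 genes, against 40.5% of all genes. The median log2 fold change of the 9 was -0.09, beside 0.00 over all genes.

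Onecut1 was 285, 272, 209 and 372 in LCAT libraries, against 798, 876, 596 and 783 in Vec libraries. The highest LCAT library lay well below the lowest Vec library. Onecut1 averaged 284 ± 67.4 with LCAT and 763 ± 119 with Vec (SD, n = 4 each), which is -1.44 on the log2 scale (SE 0.188, 0.369-fold, limma adjusted p = 0.000679). Over 22 alternative settings it ran from -1.62 to -1.21 and stayed called in 22, with -1.21 on the end libraries (limma adjusted p = 0.0126). Of the calls made on the 9 genes in either comparison, it is the 1 that held with the end libraries. That fit kept all 4 Vec libraries, while the OVX fit kept libraries 1 and 4 of each group and called 0 of 13056 genes. The end libraries therefore do not rank calls between the comparisons.

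Cebpa was 8512, 8068, 7911 and 7929 in LCAT libraries, against 6592, 6818, 6795 and 6536 in Vec libraries. The groups were separate, and each varied by less than 1.1-fold. Cebpa rose by 0.28 on the log2 scale (SE 0.068, 1.21-fold, limma adjusted p = 0.0129). It was 0.09 with equal library totals (limma adjusted p = 0.272), and 0.30 on the end libraries (0.104), neither of them called. Equal totals moved the median of all genes to -0.18, and relative to that median the rise was of the same size.

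Cebpb was 3542, 4056, 4245 and 3472 in LCAT libraries, against 4450.3, 4669.8, 4534 and 4112 in Vec libraries. LCAT library 3 overlapped Vec library 4, and the other LCAT libraries were below all Vec libraries. The log2 fold change was -0.22 (SE 0.093, limma adjusted p = 0.0912), and with equal library totals it was -0.40 and called (0.0129). The median of all genes was then -0.18, so relative to that median the Cebpb change was of the same size. Beside it Tmem189 averaged 388 ± 98.0 with LCAT and 302 ± 61.3 with Vec, and was not called.

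Hnf4a was 9928, 11190.5, 10721 and 12193 in LCAT libraries, against 11933, 11796, 10716 and 11340.3 in Vec libraries, with the Vec range inside the LCAT range. Its change was -0.06 on the log2 scale (95% interval -0.26 to 0.14, limma adjusted p = 0.607), which allows 0.836-fold to 1.1-fold. Foxa3 was 1308, 1271, 1429.7 and 1272 in LCAT libraries, against 1357, 1331, 1145 and 1259.8 in Vec libraries. Both groups were level here, unlike the Sham group. The log2 fold change of Foxa3 was 0.05 (95% interval -0.14 to 0.25, limma adjusted p = 0.634). It turned to -0.13 with equal library totals, where the median of all genes was -0.18.

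Foxa1 was 274, 396, 337 and 440.4 in LCAT libraries, against 397, 376, 386 and 367 in Vec libraries. Foxa2 was 342, 295, 304 and 477 in LCAT libraries, against 446, 398, 428 and 246 in Vec libraries. The groups overlapped for both genes. The log2 fold changes were -0.10 for Foxa1 (95% interval -0.43 to 0.23, limma adjusted p = 0.607) and -0.09 for Foxa2 (-0.60 to 0.43, 0.778), and each turned positive without 1 library.

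Onecut2 was 703, 887, 897 and 1533 in LCAT libraries, against 776, 771, 785 and 786 in Vec libraries. Prox1 was 941, 1584, 1437 and 2483 in LCAT libraries, against 2001, 2055, 1986 and 2029 in Vec libraries. In both genes LCAT library 4 stood above the Vec libraries and LCAT library 1 below them. The log2 fold changes were 0.30 for Onecut2 (SE 0.210, limma adjusted p = 0.272) and -0.41 for Prox1 (SE 0.250, 0.216). Without LCAT library 4, that of Prox1 was -0.65 and called (limma adjusted p = 0.0138). Leaving out single libraries gave a range of -0.65 to -0.18 for Prox1.

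Markers of other cells also moved with LCAT, beside 20.2% of all genes called higher and 20.5% lower. Of 12 Kupffer cell and macrophage markers, 10 were higher and 2 lower, though their sums overlapped, at 10832 to 14372 in LCAT libraries and 12741 to 14580.3 in Vec libraries. Of 11 cholangiocyte markers tested, 7 were higher and 1, Spp1, was lower. Their sums were 23387 to 31456 with LCAT and 68634 to 86058 with Vec, again mostly Spp1, and Cftr had 0 reads in the Vec libraries. Of 19 hepatocyte markers, 8 were higher and 3 lower (median log2 fold change 0.17), but 7 higher and 6 lower with equal library totals (median -0.01), with sums of 3052671 to 4022201 in LCAT libraries and 3331569.9 to 3598599 in Vec libraries. Of 12 sinusoidal endothelial markers, 7 were higher and 2 lower, with sums of 4605 to 8857 with LCAT and 4747 to 5235 with Vec. On the end libraries, calls were 6 higher and 2 lower for Kupffer cell and macrophage markers and 5 and 1 for cholangiocyte markers. They were 2 and 3 for hepatocyte markers and 5 and 2 for sinusoidal endothelial markers. The part of these markers in the changes of Onecut1 and Cebpa was not tested.

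**Figure D3:**
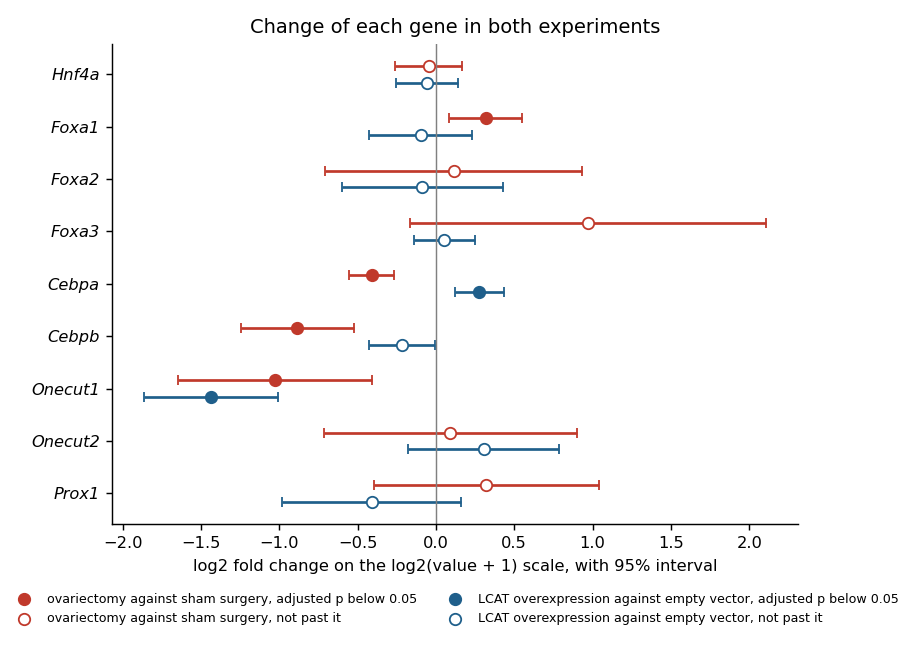
Log2 fold changes of the 9 genes on the log2(value + 1) scale with 95% intervals, for OVX against Sham (red) and LCAT against Vec (blue), filled where the limma adjusted p is below 0.05. Cebpa lies at -0.41 with ovariectomy and at 0.28 with LCAT, Onecut1 lies below 0 in both, and the Foxa3 interval with ovariectomy runs from -0.17 to 2.11.

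A test of the difference between both changes set the comparisons against each other, and they share no libraries. It called 2 of the 9 genes, beside 44.8% of 13166 genes tested. Cebpa fell with ovariectomy and rose with LCAT, and the difference of its log2 fold changes, ovariectomy minus LCAT, was -0.69 (SE 0.089, limma adjusted p = 2.34e-05). It was -0.72 on the end libraries (limma adjusted p = 0.0472, edgeR adjusted p = 0.0527), and -0.26 with equal library totals (limma, 0.0456). Cebpb differed by -0.67 (SE 0.190, limma adjusted p = 0.0101), but by -0.56 on the end libraries (0.277) and -0.24 with equal totals (0.254). The difference for Onecut1 was 0.41, with a 95% interval from -0.33 to 1.15 (limma adjusted p = 0.355). For Foxa1 it was 0.42 (0.03 to 0.80, limma adjusted p = 0.0743), and for Foxa3 0.92 (-0.23 to 2.06, 0.177). Equal library totals moved the median difference of all genes from 0.04 to 0.46, and there Foxa1 (0.84), Onecut1 (0.84), Prox1 (1.16) and Hnf4a (0.44) were called too. Relative to that shifted median, these differences and those of Cebpa and Cebpb kept about the same size. A p that misses the threshold does not show that the changes were alike.

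Ratios between factors within a library do not depend on how libraries are scaled, and are given as a description with no length correction. The ratio of Cebpb to Cebpa counts was 0.527, 0.433, 0.488 and 0.408 in OVX libraries, against 0.892, 0.671, 0.603 and 0.468 in Sham libraries. It was 0.416, 0.503, 0.537 and 0.438 in LCAT libraries, against 0.675, 0.685, 0.667 and 0.629 in Vec libraries. The mean was lower with OVX and with LCAT, with overlap in the surgery groups and none in the vector groups. The ratio of Onecut2 to Onecut1 averaged 3.40 ± 0.923 with OVX and 1.84 ± 1.24 with Sham, with overlap. It averaged 3.54 ± 0.843 with LCAT and 1.04 ± 0.191 with Vec, without overlap (SD, n = 4 each).

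Of 12 paralogs and basic leucine zipper partners of the factors tested, 0 were higher and 1 lower with ovariectomy, beside 39.6% of all genes called, with a median log2 fold change of -0.17, which became 0.07 with equal library totals. The call was Nfil3, a leucine zipper repressor of the circadian output, at 479 ± 54.3 with OVX and 2201 ± 898 with Sham (log2 fold change -2.10, SE 0.296, limma adjusted p = 0.0012). With LCAT 3 of 12 were higher and 0 lower, beside 40.7% of all genes called (median 0.07, and -0.11 with equal totals), and 1, Cebpe, was called on the end libraries. These were Cebpe, known from granulocytes, at 149 to 207 in LCAT libraries and at most 70.2 in Vec libraries (1.60, limma adjusted p = 0.000164), Cebpd, an acute phase C/EBP (0.43, 0.00868), and Hlf, a circadian leucine zipper factor (0.64, 0.0208). On the end libraries Cebpd was 0.35 (0.115) and Hlf 0.67 (0.121). Cebpd was 682, 639, 602 and 309.8 in OVX libraries, against 1015, 753, 704 and 455 in Sham libraries, with overlap and no call. Cebpg, a C/EBP that lacks an activation domain, was called in neither comparison. The HNF4A paralog Hnf4g stayed below the filter, at 3.47 with OVX, 2.27 with Sham, 1.55 with LCAT and 0.877 with Vec. Onecut3 had 0 reads in all but 1 LCAT library.

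Of 24 other liver transcription factors, 5 were higher and 8 lower with ovariectomy, beside 19.0% and 20.6% of all genes (median -0.19, and 0.05 with equal totals). Those with the smallest p were Cux2, a female-biased repressor (log2 fold change -2.44, limma adjusted p = 2.7e-05), Nr1i2, the xenobiotic receptor PXR (-0.79, 0.000645), and Creb3l3, a fasting-induced factor (-0.43, 0.000802). With LCAT 9 of 23 were higher and 1 lower, beside 20.2% and 20.5% of all genes (median 0.23, and 0.04 with equal totals), and 5 and 1 on the end libraries. They were led by Nr1h4, the bile acid receptor FXR (0.69, 0.000278), Klf15, a fasting factor (0.91, 0.000333), and Nr1i3, the receptor CAR (2.11, 0.000413).

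**Figure D4:**
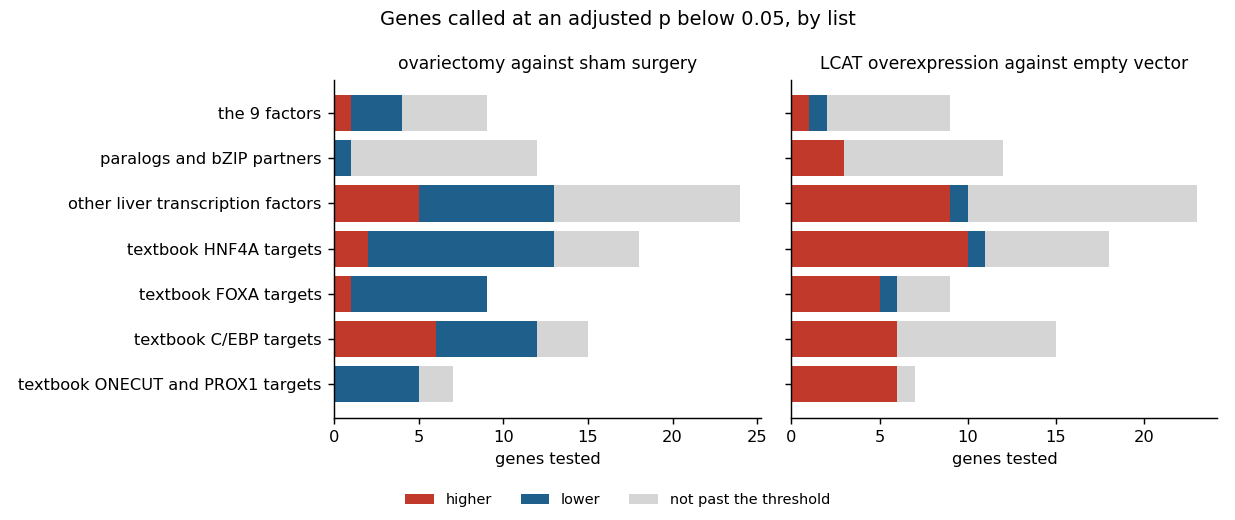
Number of genes called higher (red), called lower (blue) and not past the threshold (grey) at a limma adjusted p below 0.05, for the 9 factors and 6 lists of relatives and targets in both comparisons. Of 18 HNF4A targets, 2 were higher and 11 lower with ovariectomy, while 10 were higher and 1 lower with LCAT. The lists were chosen with earlier results of these data known.

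More of the textbook targets of HNF4A, of the FOXA factors and of the ONECUT factors with PROX1 were lower than higher with ovariectomy, and more were higher than lower with LCAT. All genes were called higher in 19.0% and lower in 20.6% with ovariectomy, and in 20.2% and 20.5% with LCAT, with a median of 0.00 in both. The target lists were chosen with earlier results of these data known, so their counts are a description and not an independent test. None of the target calls with ovariectomy was made on the end libraries. With ovariectomy 2 of 18 HNF4A targets were higher and 11 lower, with a median log2 fold change of -0.61 beside -0.05 for Hnf4a. Pck1, which controls gluconeogenesis, was 7177 ± 439.9 with OVX and 49274 ± 8328 with Sham (log2 fold change -2.77, SE 0.125, limma adjusted p = 1.95e-05). The bile acid uptake transporter Slc10a1 changed by -2.12 (1.95e-05) and the apolipoprotein gene Apoa4 by -1.84 (2.53e-05). With LCAT 10 of the 18 were higher and 1 lower, with a median of 0.58 beside -0.06 for Hnf4a, and 6 were higher and 0 lower on the end libraries. Otc, of the urea cycle, was 3697 ± 126 with LCAT and 1148 ± 74.4 with Vec (1.69, SE 0.077, limma adjusted p = 3.3e-06), Slc10a1 changed by 3.01 (1.54e-05), and Cyp8b1, of bile acid synthesis, by 4.40 (0.000208). Apoa4 was lower with LCAT too (-0.73, 0.047), though not called on the end libraries (-0.69, 0.216).

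Of 9 FOXA targets tested, 1 was higher and 8 lower with ovariectomy (median -0.98), among them Pck1, Igfbp1 (-1.35, limma adjusted p = 0.000167), an insulin-repressed binding protein gene, and Cps1, of the urea cycle (-0.97, 0.000199). With LCAT 5 were higher and 1 lower (median 0.34), and 1 and 1 on the end libraries. Igfbp1 was the 1 that fell, to 5508 ± 2093 with LCAT, against 24674 ± 808 with Vec (-2.26, SE 0.288, 0.000593). The glucose-6-phosphatase gene G6pc (3.87, 0.00209) and the tyrosine aminotransferase gene Tat (0.86, 0.00368) rose, and Tat was not called on the end libraries (0.79, 0.0586).

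C/EBP targets split with ovariectomy, where 6 of 15 were higher and 6 lower (median -0.18, and 0.06 with equal totals). The metabolic targets Pck1, Cps1 and Gys2, the liver glycogen synthase gene (-0.63, limma adjusted p = 0.000742), were among those that fell. The 6 that rose were acute phase genes, named after their values were seen: Saa1, Saa2 and Saa3 of serum amyloid A, Orm1 and Orm2 of orosomucoid, and Lcn2 of lipocalin 2. Their log2 fold changes ran from 0.99 for Saa3 to 2.51 for Saa2 (limma adjusted p = 0.000921 and 0.00331), and the Saa and Orm genes are close copies among which reads may have been split. With LCAT 6 were higher and 0 lower (median 0.17, and -0.01 with equal totals), and 4 and 0 on the end libraries, with the iron hormone gene Hamp (3.24, 6.41e-05), the acute phase gene Crp (0.65, 0.000519) and Gys2 (1.0, 0.000931) first. Of 7 targets of ONECUT factors and PROX1, 0 were higher and 5 lower with ovariectomy (median -0.98). With LCAT, where Onecut1 fell, 6 were higher and 0 lower (median 1.89), and 3 and 0 on the end libraries, Slc10a1 first, then the bile acid synthesis gene Cyp7a1 (4.13, 0.00179) and G6pc. The lists share genes, Pck1 and G6pc being in all 4, so their counts are not independent.

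**Figure D5:**
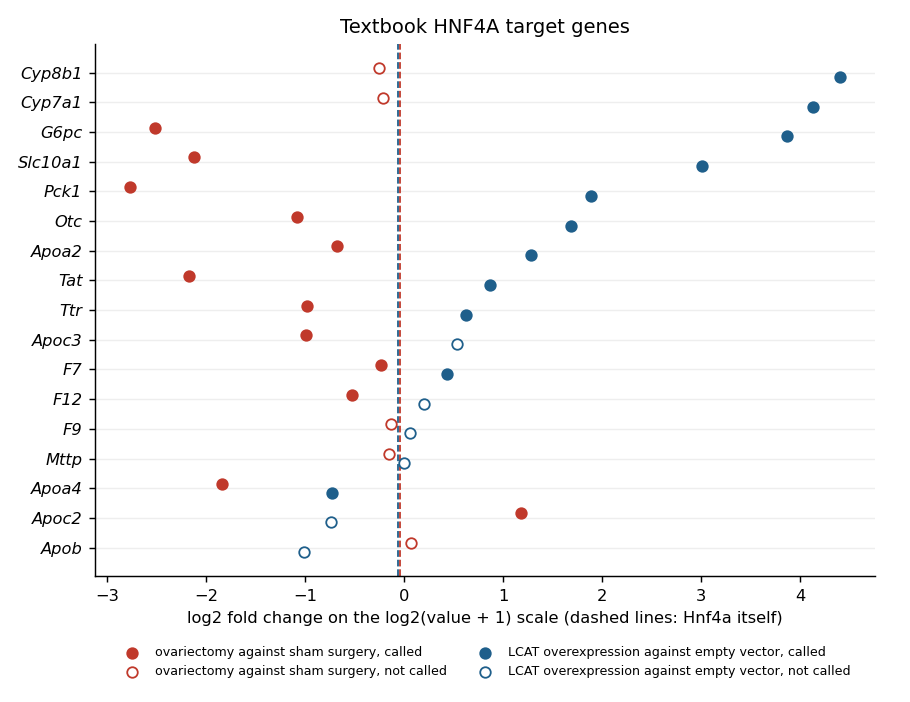
Log2 fold changes of 17 of the 18 textbook HNF4A target genes on the log2(value + 1) scale, for OVX against Sham (red) and LCAT against Vec (blue), filled where called, with dashed lines at the change of Hnf4a itself. The lines lie at -0.05 and -0.06, while Pck1 lies at -2.77 with ovariectomy and Cyp8b1 at 4.40 with LCAT.

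Genes whose pattern was most like each factor are given by Pearson's r of log2 values over the 16 libraries, as a description, since the libraries form 4 groups and 10748 genes were compared. They were Zbtb40 (0.986) and Dph2 (0.978) for Foxa3, Lrrc28 (0.966) and Tmem219 (0.964) for Cebpa, and Zdhhc17 (0.957) and Rnf169 (0.954) for Prox1. They were Ttc17 (0.948) for Onecut1, Slc30a10 (0.939) and Hmox1 (0.935) for Onecut2, and Gtf2h1 (0.937) and Pcbp2 (0.916) for Cebpb. Values were lower for Foxa1 (Rsrc2, 0.928), Hnf4a (Tns2, 0.889, and Arid5b, 0.868) and Foxa2 (Casc4, 0.803, and Kctd20, 0.702).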

How the data were processed

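Libraries of polyadenylated RNA were made from 200 ng of TRIzol-extracted RNA with the manufacturer's BGI method, per the labels' protocols. The submitters' processing notes list FastQC, HISAT2, SAMtools, StringTie and the build mm10. Versions, annotation, counting tool and strand setting: not given in the sources used here. Deposited values are a signal, namely read counts that the authors scaled by a size factor for each library. Multiplied back, 100% of values in each of the 16 libraries were whole reads, to within 0.01 read. Such scaling does not see a change in total RNA per cell. Of the gene names, 24 had become dates.

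The 9 genes and the gene lists were chosen with earlier results of these data known. The fits used log2(value + 1) in limma 3.58.1 (trend, robust) under R 4.3.3 and genes averaging at least 10 over the 8 libraries of a comparison, or over all 16 for the difference between comparisons. Adjusted p-values are Benjamini-Hochberg values over all genes tested, with a threshold of 0.05, and intervals are 95% intervals. The pseudocount of 1 makes changes of low genes look smaller. Other settings tried were pseudocounts of 0.5 and 5, filtering at 50 or not at all, TMM rescaling, equal totals, no trend, arrayWeights, 1 fit of 16 libraries, the replicate number as a block, the end libraries (1 and 4 of OVX, Sham and LCAT, with all Vec), each library left out, and edgeR 4.0.16 and DESeq2 1.42.0 on the recovered reads. Using edgeR on the end libraries was added after seeing the data. The fits were tested on simulated data.

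Named are the 9 genes, Lcat and Alb, Cebpd, Cebpg and Hnf4g, up to 3 called genes with the smallest p per list and comparison, and the 2 most alike genes per factor, some of which are not reported here. Tmem189, Gm20649, Onecut3, Spp1, Cftr and the 6 acute phase genes were named after their values or annotation were seen. Coordinates and exon overlaps are from GENCODE M21 (GRCm38), promoters from RefSeq.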

Additional observations from a re-analysis of the deposited data

Results flagged for a closer look

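The change of Cebpa differed between the experiments. It was -0.41 with ovariectomy and 0.28 with LCAT overexpression, a difference of -0.69 (limma adjusted p = 2.34e-05, lower in 4 of 4 OVX libraries than in any Sham library, higher in 4 of 4 LCAT libraries than in any Vec library).

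The change of Cebpb also differed, at -0.88 with ovariectomy and -0.22 with LCAT overexpression, a difference of -0.67 (limma adjusted p = 0.0101). All 4 OVX libraries lay below the Sham libraries, and 3 of 4 LCAT libraries lay below all Vec libraries. The same test called 44.8% of all genes. On the end libraries Cebpb was not called (limma adjusted p = 0.277, edgeR adjusted p = 0.237). Tmem189, which shares exon bases with Cebpb, differed by -1.80 (limma adjusted p = 0.000486), and its part in the Cebpb difference was not tested.

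No library of the 9 genes stood far enough from the other 3 of its group to pass Dixon's 95% critical value in 36 groups tested, where chance gives about 1 in 20.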

How the results depend on the processing

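Over 27 results for single factors, 583 of 657 alternative values kept their direction and their side of the threshold. With libraries 2 and 3 left out of all groups but Vec, 0 genes and 0 of the 9 factors were called with ovariectomy by limma and by edgeR, 2213 (edgeR 2286) genes and 1 factor with LCAT, and 1507 (edgeR 1551) genes in the difference; fewer samples are then tested. arrayWeights called 8228 genes with LCAT. Leaving out single libraries gave 3677 to 6528 genes with ovariectomy, 3903 to 6828 with LCAT and 5290 to 6638 in the difference, and 3 to 5 and 2 to 3 of the factors. Higher calls made up 78.7% with ovariectomy and 31.1% with LCAT under equal library totals, against 48.0% and 49.7% as deposited. The replicate numbers did not pair the samples (correlations of -0.059 to 0.04 and of -0.034 to 0.121), and samples did not all correlate best with their own number. The replicate block called 3 factors with ovariectomy and 1 with LCAT, not calling Foxa1 with ovariectomy (limma adjusted p = 0.0711) and Cebpa with LCAT (0.0532).

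Signs that turned belong to values that were not called as deposited. Equal library totals gave 0.20 for Hnf4a with ovariectomy, -0.13 for Foxa3 with LCAT and 0.22 for Onecut2 in the difference. The medians of all genes were then 0.24, -0.18 and 0.46. With libraries 2 and 3 left out, Foxa2 was 0.13 with LCAT (edgeR 0.10) and -0.027 in the difference, Onecut1 was -0.029 and Hnf4a -0.024 (edgeR -0.038) in the difference, and edgeR gave -0.17 for Onecut2 with ovariectomy. Onecut2 with ovariectomy was -0.041 by edgeR and -0.047 by DESeq2 on all libraries, Hnf4a in the difference was -0.0067 by edgeR, and Foxa2 with ovariectomy was -0.0052 with arrayWeights. Leaving out single libraries gave ranges of -0.107 to 0.021 for Hnf4a, -0.13 to 0.31 for Foxa2 and -0.23 to 0.40 for Onecut2 with ovariectomy. With LCAT they were -0.20 to 0.028 for Foxa1 and -0.28 to 0.0036 for Foxa2, and in the difference -0.048 to 0.080 for Hnf4a, -0.039 to 0.39 for Foxa2 and -0.53 to 0.10 for Onecut2. The causes were not tested. The fewest reads behind a value of the 9 factors were 147, for Foxa3 in Sham library 1.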
